A study of Mus musculus with 10 samples.

Results

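Leydig cell steroidogenic genes were examined in whole testes of 10 day old mice. The set comprised 10 genes chosen by name, Lhcgr, Star, Cyp11a1, Hsd3b1, Hsd3b6, Cyp17a1, Hsd17b3, Srd5a1, Akr1c14 and Insl3. A gene counted as measured where a probe set of the array named it and no other gene, which held for 6 of the 10 genes and 8 of the array's 22690 probe sets. The 6 were Star, with 3 probe sets, and Cyp11a1, Hsd3b1, Cyp17a1, Hsd17b3 and Akr1c14, with 1 each. Hsd3b6 and Insl3 were named together with other genes, so their values are not attributed here, and Lhcgr and Srd5a1 were not analysed here. Star lies on chromosome 8, Cyp11a1 on 9, Hsd3b1 on 3, Cyp17a1 on 19, and Hsd17b3 and Akr1c14 on 13. The genes were not chosen by their values, but earlier results of these data were known when the set was made.

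The mutant mice were SCARKO, whose Sertoli cells lack the response to androgen, and the controls were AMHCre mice, which carry a Cre recombinase driven by the promoter of the anti-Müllerian hormone gene, active in Sertoli cells. Each of the 5 SCARKO and 5 control arrays held RNA from 1 testis of each of 3 mice, pooled within a litter, and same-numbered SCARKO and control pools came from littermates, as the protocol recorded for pairs 1 to 4 states. Genotypes were taken from the sample titles. The description of an array contradicts its title for 8 arrays, those of pairs 1 to 4, and matches it for the 2 arrays of pair 5. Every direction below rests on the titles, since the targeted gene is not reported here. With the descriptions' genotypes no probe set was called by limma, and Hsd3b1 and Hsd17b3 had log2 fold changes of the other sign, -0.06 and -0.18. Values were signal intensities on a linear scale with a trimmed mean of 100 on each array, and 13575 probe sets brighter than a mean signal of about 19.3 were tested. A log2 fold change is SCARKO minus control, from limma with the pair as a block, and adjusted p-values are Benjamini-Hochberg values over all 13575 probe sets.

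Leydig cells lie between the seminiferous tubules and are the testis's main source of androgen. Luteinizing hormone acts through its receptor Lhcgr and cyclic AMP, Star then carries cholesterol into the mitochondrion, and Cyp11a1 cleaves its side chain to give pregnenolone. The 3-beta-hydroxysteroid dehydrogenases (Hsd3b1 and, in adult Leydig cells, Hsd3b6) and Cyp17a1 carry the steroid on to androstenedione, and Hsd17b3 reduces that to testosterone. In immature Leydig cells of rodents, Srd5a1 and Akr1c14 turn testosterone into 5-alpha-reduced androgens, and Insl3 is the peptide hormone of testicular descent. By design, SCARKO Sertoli cells do not respond to androgen while Leydig cells are not targeted. The comparison asks how genes of androgen synthesis were expressed in whole testis when Sertoli cells could not respond to the hormone. Whole testis does not show which cell type expressed a member, Hsd17b3 included.

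No member passed the test in either direction. Of the 8 member probe sets limma called 0 at an adjusted p under 0.05, with 2 at an unadjusted p under 0.05, against 5.19% of all 13575 probe sets called (1.93% higher and 3.26% lower in SCARKO) and 20.9% at an unadjusted p under 0.05. None of the 8 was higher in SCARKO in all 5 pairs, which held for 9.96% of all probe sets tested, and none had groups that did not overlap, which held for 4.52%. Hsd17b3 and Akr1c14 had the largest log2 fold changes of the members, 0.50 and 0.24, and the median over the 6 genes was 0.01, against 0.02 over all 7972 genes. The members differed far more in how much they varied from pool to pool. Star and Cyp17a1 were low in the same 2 pools, 1 of each genotype, whereas Hsd3b1 and Akr1c14 were at their group's lowest in neither.

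**Figure D1:**
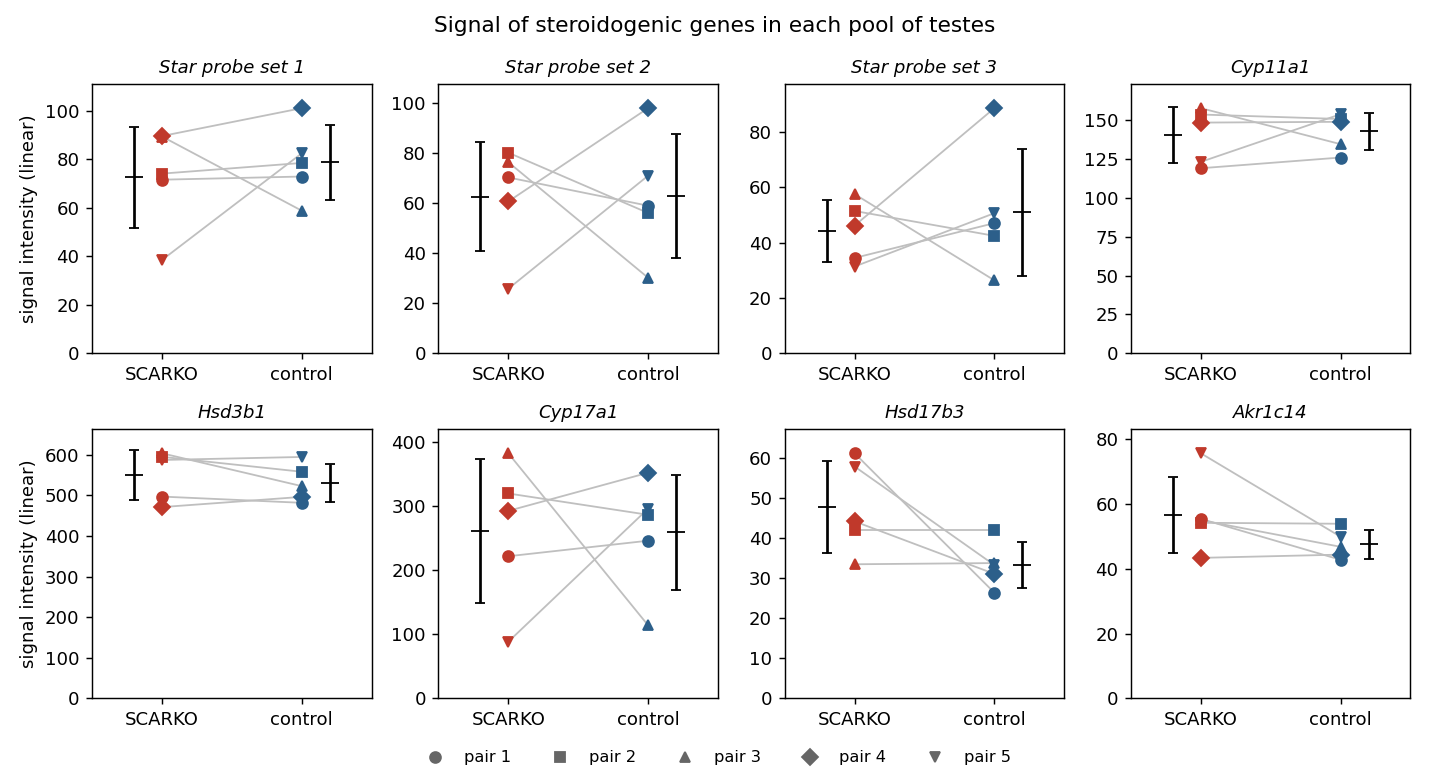
Signal intensity (linear, axis from 0) of the 8 member probe sets in the 5 SCARKO pools (red) and the 5 control pools (blue); grey lines join pools of 1 pair, and black bars give the mean ± SD of each group. For Star and Cyp17a1 the lowest values belong to SCARKO pair 5 and control pair 3, and the groups overlap for every member.

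At the entry of the pathway, Star was read by 3 probe sets. Probe set 1 had signals of 71.6, 74.1, 89.4, 89.6 and 38.5 in SCARKO pools 1 to 5, against 72.9, 78.5, 58.8, 101.1 and 82.5 in control pools 1 to 5. SCARKO pool 5 was lowest by a wide margin, control pool 3 was next, and the groups overlapped. Its log2 fold change was -0.16 (SE 0.17, adjusted p = 0.66 by limma), with a 95% interval of the fold from 0.688 to 1.17.

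Star probe set 2 had 70.3, 80.2, 76.4, 60.7 and 25.8 in SCARKO pools, against 59, 56.1, 30.2, 98 and 71 in control pools. Star probe set 3 had 34.5, 51.5, 57.6, 46.2 and 31.4 in SCARKO pools, against 47.1, 42.5, 26.4, 88.7 and 50.7 in control pools. Within each probe set the lowest pool of each group was SCARKO pool 5 and control pool 3, and the highest of all was control pool 4. Their log2 fold changes were -0.01 (SE 0.30, adjusted p = 0.99) and -0.14 (SE 0.24, adjusted p = 0.80). The 3 probe sets read 1 gene and are not independent measurements of it.

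Cyp11a1, the side-chain cleavage enzyme, had 119.2, 153.8, 157.9, 148.6 and 123.3 in SCARKO pools, against 126.1, 150.9, 134.7, 149.1 and 154 in control pools. SCARKO pools 1 and 5 and control pool 1 were the lowest, and the full range over the 10 pools was 1.33-fold. The log2 fold change was -0.03 (SE 0.07, adjusted p = 0.86), with a 95% interval from -0.19 to 0.13.

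Hsd3b1, which converts pregnenolone to progesterone, had 496.6, 594.4, 603.1, 470.8 and 586.7 in SCARKO pools, against 481.3, 557.7, 522.3, 495.9 and 594.1 in control pools. Pairs 1 and 4 were low and pairs 2 and 5 high in both genotypes, while the pools of pair 3 lay farther apart. The log2 fold change was 0.05 (SE 0.05, adjusted p = 0.59), and the 95% interval of the fold, 0.964 to 1.11, was the narrowest among the 8 probe sets. A test of the differences between the 5 pairs in the same limma fit gave Hsd3b1 an unadjusted p of 0.0050 and an adjusted p of 0.13, so it did not pass. That test called 0 member probe sets, with Hsd3b1 the 1 at an unadjusted p under 0.05, against 0.589% of all 13575 probe sets called and 17.5% at an unadjusted p under 0.05.

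Cyp17a1, the 17-alpha-hydroxylase and lyase that commits the pathway to androgens, varied most. It had 221.6, 319.4, 382, 292.3 and 88.4 in SCARKO pools, against 245.8, 286.2, 114, 351.7 and 295.7 in control pools. SCARKO pool 5 and control pool 3 stood far below the other 8 pools, whose lowest value was 221.6, and the 10 pools spanned a 4.32-fold range. The group means were 260.7 ± 112 in SCARKO and 258.7 ± 89.3 in control (SD, n = 5 each). The log2 fold change was -0.05 (SE 0.33, adjusted p = 0.95), and its 95% interval of the fold ran from 0.582 to 1.60.

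The difference within a pair depended on these pools. For Cyp17a1 it was -0.15, 0.16, 1.74, -0.27 and -1.74 on the log2 scale in pairs 1 to 5. Pairs 3 and 5 thus had differences of nearly the same size and opposite sign. Without pair 3 the log2 fold change of Cyp17a1 was -0.50 (adjusted p = 0.34) and without pair 5 it was 0.37 (adjusted p = 0.50). Without both pairs it was -0.09 (adjusted p = 0.78). For Star probe set 1 the corresponding values were -0.35 without pair 3 (adjusted p = 0.32) and 0.08 without pair 5 (adjusted p = 0.79).

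Hsd17b3, which completes the synthesis of testosterone, had 61.2, 42.1, 33.5, 44.2 and 57.9 in SCARKO pools, against 26.4, 42.1, 33.8, 31.1 and 33.3 in control pools. SCARKO pools 1 and 5 were above every control pool and SCARKO pool 4 also, while pair 2 had equal values and pair 3 nearly equal ones, so that SCARKO was higher in 3 of 5 pairs. Means were 47.8 ± 11.5 in SCARKO and 33.3 ± 5.70 in control (SD, n = 5 each). The log2 fold change was 0.50 (SE 0.16), with a 95% interval from 0.14 to 0.86 before correction for multiple tests, an unadjusted p of 0.011 and an adjusted p of 0.11. It did not pass with any 1 pair left out, where the adjusted p ran from 0.061 to 0.28.

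Akr1c14, a 3-alpha-hydroxysteroid dehydrogenase, had 55.3, 54.1, 54.9, 43.3 and 75.5 in SCARKO pools, against 42.7, 53.8, 46.7, 44.3 and 49.8 in control pools. SCARKO was higher in 4 of 5 pairs, SCARKO pool 5 had the highest value of all, and the groups overlapped. The log2 fold change was 0.24 (SE 0.10), with an unadjusted p of 0.042 and an adjusted p of 0.22. Without pair 5 it was 0.15 (adjusted p = 0.54).

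**Figure D2:**
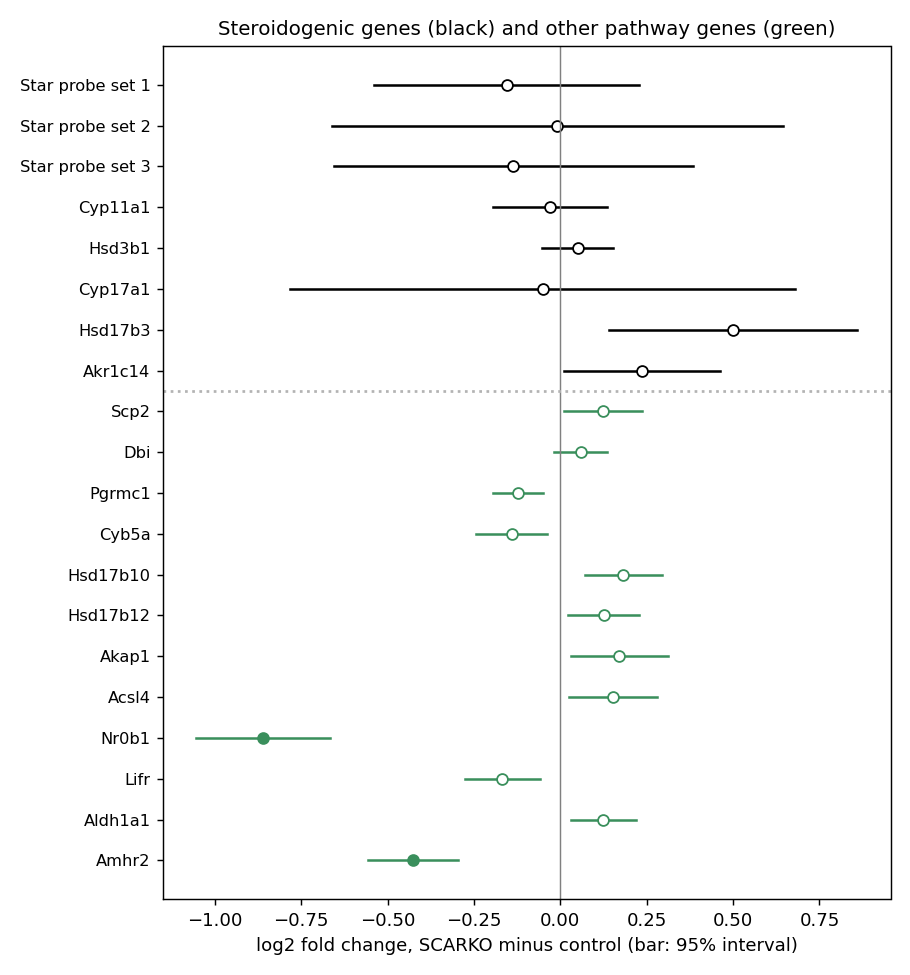
Log2 fold change, SCARKO minus control (horizontal axis), with its 95% interval from limma for the 8 member probe sets (black) and for named genes of the other pathway lists (green); filled points have an adjusted p under 0.05. No member point is filled, Cyp17a1 and Star probe set 2 have the widest intervals, and Nr0b1 and Amhr2 are the filled points.

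The spread left after genotype and pair were fitted was high for Star, Cyp17a1 and Hsd17b3. The residual SD of the log2 signal was 0.88 for Cyp17a1, higher than in 99.96% of the 13575 probe sets tested. It was 0.43, 0.77 and 0.59 for Star probe sets 1 to 3, higher than in 99.1% to 99.9%. Dim probe sets vary more, and among the 2382 probe sets within 0.5 log2 units of its mean signal Cyp17a1 still exceeded 99.96%. Hsd17b3 had a residual SD of 0.37, above 97.3% of probe sets of similar signal, and Akr1c14 one of 0.19, above 72.4%. Cyp11a1 (0.14, above 78.7%) and Hsd3b1 (0.08, above 56.4%) had the smallest residual SDs of the members. These percentiles are descriptions of the 10 arrays and carry no test.

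**Figure D3:**
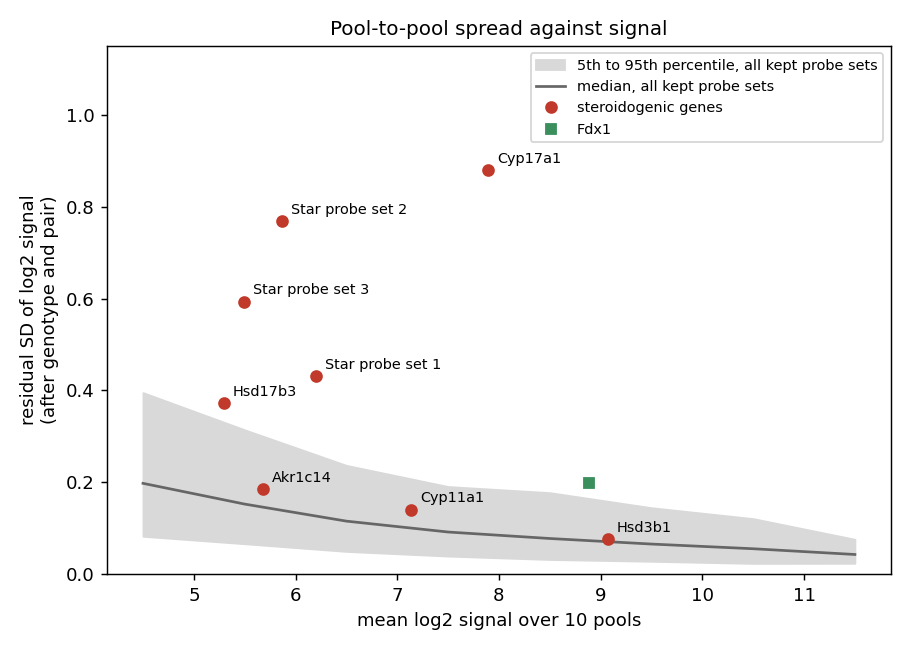
Residual SD of log2 signal after genotype and pair (vertical axis, from 0) against the mean log2 signal over the 10 pools (horizontal axis); the grey band spans the 5th to 95th percentile of all probe sets tested, in steps of 1 log2 unit, and the line is their median. Cyp17a1 (0.88) and the 3 Star probe sets (0.43 to 0.77) lie above the band, as does Hsd17b3 (0.37), while Hsd3b1 (0.08), Cyp11a1 (0.14) and Akr1c14 (0.19) lie within it.

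The pools that were low in Star and Cyp17a1 were also low in Fdx1, which encodes ferredoxin 1 (adrenodoxin), the electron donor of Cyp11a1 in the mitochondrion. Fdx1 had 470.7, 505.5, 528.3, 531.3 and 378.3 in SCARKO pools, against 521.9, 458.1, 381.9, 542.9 and 447.6 in control pools. SCARKO pool 5 and control pool 3 again held the lowest values, though with a narrower range of 1.44-fold over the 10 pools. Its log2 fold change was 0.04 (SE 0.08, adjusted p = 0.84).

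Likeness of pattern was measured as the root mean square difference between 2 genes' log2 profiles over the 10 pools, each centred and divided by its SD, so that 0 means the same pattern. Each gene was taken by its brightest tested probe set, which for Star was probe set 1. Among 7971 other genes the closest to Cyp17a1 was Star, at 0.354, and the next was Fdx1, at 0.450, followed by the mitochondrial ribosomal protein gene Mrpl44 at 0.478. Star probe set 2 differed from Cyp17a1 by 0.317, but probe set 3 by 0.577, more than Fdx1 and Mrpl44. The median over all genes was 1.34 for Cyp17a1. Star's own closest was Cyp17a1, then the folate receptor gene Folr2 at 0.417, whose signals of 12.4 to 24.7 were near the lower limit of testing, and Stxbp4 at 0.463. Fdx1 ranked 8 for Star, at 0.540.

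The likeness was smaller without the pairs that hold these 2 pools, a setting added after the data were seen. Without pairs 3 and 5 the difference between Cyp17a1 and Star was 0.665 over 6 pools, a rank of 341, and that between Cyp17a1 and Fdx1 was 0.911, a rank of 1127. With 1 pair left out at a time Star ranked between 1 and 33 for Cyp17a1 and Fdx1 between 6 and 56. The points share arrays, RNA pools and scaling, and no test was made.

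Cyp11a1 was among the closer genes to Cyp17a1, at 0.742 (rank 69), and to Star, at 0.790 (rank 124). The difference from Cyp17a1 was 1.36 to Hsd3b1 (rank 4144), 1.58 to Hsd17b3 (rank 7134) and 1.64 to Akr1c14 (rank 7578) among the remaining members, where patterns that run opposite give the highest values. SCARKO pool 5, lowest in Star, Cyp17a1 and Fdx1, was the highest pool for Akr1c14 and above the middle for Hsd3b1. Between Hsd17b3 and Akr1c14 it was 0.744, rank 239 for Hsd17b3. The closest to Hsd17b3 were Il15, an interleukin gene, at 0.364, Tmtc4 at 0.412 (log2 fold change 0.28, adjusted p = 0.048, and not called without the pair block, the filter, the trend, pair 1, 3, 4 or 5) and the deubiquitinase gene Usp5 at 0.430, and the related enzyme gene Hsd17b12 ranked 4 at 0.432. Profiles were centred over all 10 pools and not within genotype, so a shared difference between genotypes also lowers the measure. Il15 was higher in SCARKO in 5 of 5 pairs, with groups that did not overlap, and Usp5 in 3 of 5 pairs. The closest to Cyp11a1 were Tusc3 at 0.422, Usp33 at 0.434 and Lztr1 at 0.447.

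**Figure D4:**
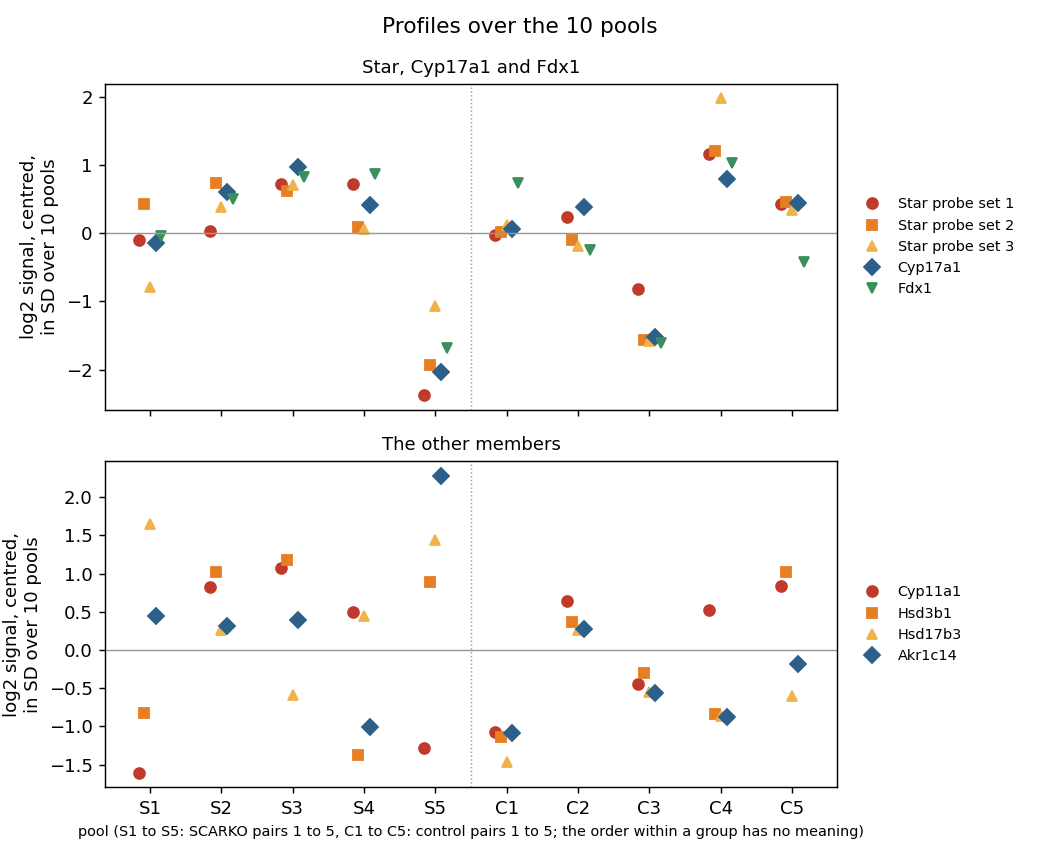
Log2 signal in each pool, centred and in units of each gene's own SD over the 10 pools (vertical axis), for Star, Cyp17a1 and Fdx1 (top) and for Cyp11a1, Hsd3b1, Hsd17b3 and Akr1c14 (bottom); S1 to S5 are SCARKO pools and C1 to C5 control pools of pairs 1 to 5. The 5 profiles of the top panel fall together in S5 and C3, while Akr1c14, Hsd17b3 and Hsd3b1 lie above 0 in S5.

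Values over the whole array were compared for these 2 pools. The median correlation of an array with the others of its group, across probe sets, was 0.9855 for SCARKO pool 5, the lowest of its group, where the other SCARKO pools had 0.9872 to 0.9898. It was 0.9848 for control pool 3, where the control pools ran from 0.9841 to 0.9870. SCARKO pool 5 also had the lowest median signal of its group, 36.8 where the others had 36.9 to 37.6. Its share of signals under 1 was the highest of its group, 7.75%, where the others had 6.73% to 7.72%. These values of SCARKO pool 5 lay within the ranges of the control pools. Control pool 3 had neither the lowest median signal nor the highest share of its group. Its median signal was 36.7, where control pools ran from 36.4 to 37. Its share of signals under 1 was the lowest of its group, 6.90%, where control pools ran up to 7.99%. The part of these array values in the low Star, Cyp17a1 and Fdx1 signals of the 2 pools was not tested. In whole testis, fewer Leydig cells and less RNA of a gene per Leydig cell cannot be told apart.

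Upstream sequences are shown for 3 genes with unlike patterns, Fdx1, which followed Cyp17a1, Hsd3b1, which did not, and Hsd17b3, the member with the largest log2 fold change. Of the 10 members 8 had an entry in the promoter table, Star and Cyp17a1 being without one. Each line gives the 250 bases before the annotated start in RefSeq on GRCm38.p6, read along the gene from 5′ to 3′, at chr9:51963603-51963852 for Fdx1, chr3:98859795-98860044 for Hsd3b1 and chr13:64089202-64089451 for Hsd17b3, all on the minus strand. Capitals mark TCAAGG on either strand, only a part of the extended half-site known for steroidogenic factor 1 (Nr5a1), the nuclear receptor that drives steroidogenic genes.
Fdx1: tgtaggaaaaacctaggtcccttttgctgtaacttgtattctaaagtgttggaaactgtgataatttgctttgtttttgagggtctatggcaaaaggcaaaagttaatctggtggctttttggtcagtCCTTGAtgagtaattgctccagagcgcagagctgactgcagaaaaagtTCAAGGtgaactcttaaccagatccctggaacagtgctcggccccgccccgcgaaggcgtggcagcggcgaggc
Hsd3b1: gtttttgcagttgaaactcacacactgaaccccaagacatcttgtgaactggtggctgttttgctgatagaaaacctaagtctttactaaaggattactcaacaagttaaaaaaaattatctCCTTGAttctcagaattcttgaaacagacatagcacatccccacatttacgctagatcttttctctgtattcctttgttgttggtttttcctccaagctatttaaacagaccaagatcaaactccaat
Hsd17b3: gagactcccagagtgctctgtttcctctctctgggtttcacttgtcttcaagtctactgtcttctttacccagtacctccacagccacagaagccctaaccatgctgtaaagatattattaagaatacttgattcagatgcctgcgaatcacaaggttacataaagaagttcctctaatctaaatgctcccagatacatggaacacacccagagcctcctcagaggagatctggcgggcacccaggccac
Another part of that site, AAGGTCA, searched on both strands, was in 0 of the 9 windows of members and in 4.08% of all 32851 windows. The 6 letters TCAAGG, a search added after the windows had been read and overlapping AAGGTCA in part, were in 3 of the 9 windows of members (Hsd3b1, Insl3 and Lhcgr), in that of Fdx1 and in 12.5% of all windows. A match of letters is a description and not a site.

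Other genes of the pathway were taken from lists of its other steps, each gene by its brightest tested probe set. Of 10 measured genes of cholesterol supply none was called, with 1 at an unadjusted p under 0.05, while 5.69% of all 7972 genes were called and 21.7% passed 0.05 before adjustment. Scp2, the sterol carrier protein gene, had signals of 336.4 to 360 in SCARKO pools, against 292.1 to 339.6 in control pools, a log2 fold change of 0.12 (adjusted p = 0.20) with SCARKO higher in 5 of 5 pairs. Another bright Scp2 probe set had 269.4 to 327.5 in SCARKO pools, against 244.4 to 333.1 in control pools. Its log2 fold change was -0.03, with SCARKO higher in 2 of 5 pairs, and a dimmer Scp2 probe set had 0.01. Dbi, which encodes an acyl-CoA and benzodiazepine binding protein, had a log2 fold change of 0.06 (adjusted p = 0.38). The other Dbi probe sets had 0.04, -0.04 and -0.13. 

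Of 7 genes of electron transfer to steroid enzymes none was called, with 3 at an unadjusted p under 0.05. Pgrmc1, an X-linked heme-binding partner of cytochromes P450, had signals of 970.7, 1028.2, 995, 974.8 and 1013.2 in SCARKO pools, against 1064, 1126.6, 1048.6, 1093.2 and 1091.5 in control pools. The groups did not overlap, and SCARKO was lower in 5 of 5 pairs. The log2 fold change was -0.12 (SE 0.03) at an adjusted p of 0.058, so it did not pass, although it did after quantile normalization (adjusted p = 0.028) and with the dimmest 60% left out (adjusted p = 0.049). Cyb5a, whose cytochrome b5 favours the lyase reaction of Cyp17a1, had -0.14 (SE 0.05, adjusted p = 0.12) and was lower in 4 of 5 pairs. H6pd, also under 0.05 before adjustment, went the other way, with 43.9 to 46.1 in SCARKO pools, against 30.8 to 43.2 in control pools. The H6pd groups did not overlap, SCARKO was higher in 5 of 5 pairs, and the adjusted p was 0.14 by limma.

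Of 9 other steroid enzymes that were bright enough, out of 22 on the array, none was called, with 2 at an unadjusted p under 0.05. Hsd17b10, a mitochondrial dehydrogenase on the X, had a mean signal of 292 ± 16.2 in SCARKO and 258 ± 17.3 in control (SD, n = 5 each), a log2 fold change of 0.18 (adjusted p = 0.063) with SCARKO higher in 5 of 5 pairs. By the other Hsd17b10 probe set it was 0.01, with SCARKO higher in 3 of 5 pairs. Hsd17b12, which acts on fatty acyl chains and estrone, had 0.13 (adjusted p = 0.15), higher in 5 of 5 pairs. The other Hsd17b12 probe set had 0.09, higher in 4 of 5 pairs. Srd5a3, a relative of Srd5a1 known for dolichol synthesis, was by its brightest probe set the gene closest to Hsd3b1 over the pools, at 0.372. That probe set was highest in control pool 5 (61). Dimmer Srd5a3 probe sets were highest in SCARKO pool 5 (58.9), SCARKO pool 1 (45.3) and control pool 3 (42.9), and their likeness to Hsd3b1 was not measured. The other 13 of the 22 enzymes, among them Hsd3b2, Hsd3b3 and 6 Akr1c genes, were too dim over the 10 pools to test. One of them, Cyp7b1, an oxysterol and steroid 7-alpha-hydroxylase named after its values were seen, had 12.8, 11.8, 12.4, 11 and 15.8 in SCARKO pools, against 29.3, 21.7, 23.9, 33.2 and 26.3 in control pools, by 1 of its 2 probe sets. The groups did not overlap and SCARKO was lower in 5 of 5 pairs, with every control pool above the limit of 19.3 and every SCARKO pool below it. In the fit without the filter its log2 fold change was -1.07 at an adjusted p of 0.074, so it did not pass. Its groups overlapped by the other probe set, with 9.6 to 12.8 in SCARKO pools, against 9.1 to 22.9 in control pools.

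The signalling list held 17 measured genes and none was called, with 3 at an unadjusted p under 0.05. Akap1, a mitochondrial anchor of protein kinase A, had 0.17 (adjusted p = 0.16) and Acsl4, an arachidonate-preferring acyl-CoA synthetase on the X, had 0.15 (adjusted p = 0.16), both higher in 5 of 5 pairs.

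Among 8 measured transcription factors of Leydig cells, 1 fell and none rose. Nr0b1 (DAX1), a nuclear receptor that represses Nr5a1-driven genes and is also made by Sertoli cells, had 124, 141.8, 126.7, 110.6 and 129.1 in SCARKO pools, against 223, 193.1, 293, 212.4 and 233.5 in control pools. The groups did not overlap, and it fell by 0.86 on the log2 scale (SE 0.09, adjusted p = 0.00041), a call that was lost without the filter on dim probe sets (adjusted p = 0.065). The cyclic AMP responsive receptor gene Nr4a1 and Gata4 had log2 fold changes of 0.38 (adjusted p = 0.064, higher in 5 of 5 pairs, and 0.029 without pair 2) and 0.26 (adjusted p = 0.081), and Nr5a1 itself had 0.10 (adjusted p = 0.50). Control pool 3, low in Star and Cyp17a1, had the lowest Nr4a1 signal of all pools, 38.9, whereas SCARKO pool 5 had 75.2, within the SCARKO range of 69.3 to 83.6.

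Of 7 other Leydig lineage markers none was called, with 3 at an unadjusted p under 0.05. Lifr, the receptor for leukemia inhibitory factor, had 161.3 to 179.5 in SCARKO pools, against 182.9 to 202 in control pools, groups that did not overlap, with a log2 fold change of -0.17 (adjusted p = 0.079). Aldh1a1, a retinaldehyde dehydrogenase, had 0.12 (adjusted p = 0.13), and reached 0.17 at an adjusted p of 0.030 when pair 4 was left out.

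Of 11 measured genes of cross-talk between tubule and Leydig cells, 1 fell and none rose, with 5 at an unadjusted p under 0.05. Amhr2, the receptor of anti-Müllerian hormone on Sertoli and Leydig cells, had 359.9, 344, 356.4, 329.5 and 303.8 in SCARKO pools, against 497.3, 396.5, 562.4, 427.9 and 407.4 in control pools, and it fell by 0.43 on the log2 scale (SE 0.06, adjusted p = 0.0026). Its groups did not overlap, and it was not called without the filter (adjusted p = 0.079) or without pairs 3 and 5 (adjusted p = 0.052). Its ligand gene Amh, made by Sertoli cells, had 20.9, 17.2, 14.1, 19.5 and 16 in SCARKO pools, against 39.5, 20, 44.9, 21.4 and 24.5 in control pools. It was lower in SCARKO in 5 of 5 pairs with groups that overlapped, and its log2 fold change of -0.71 (SE 0.20, adjusted p = 0.065) did not pass, although it did without pair 2 (adjusted p = 0.050).

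Markers of other cell types were measured beside these genes. Of 7 Sertoli cell markers 2 fell, the tight junction gene Cldn11 (-0.68, adjusted p = 0.00028) and Gata1 (-0.50, adjusted p = 0.0079), and 1 rose, Fshr (0.42, adjusted p = 0.026), the receptor of follicle-stimulating hormone, which was not called without pair 1, 2 or 4 (adjusted p up to 0.089) or without the intensity trend (adjusted p = 0.067). Gata1 was not called without pairs 3 and 5 (adjusted p = 0.098). Neither Cldn11, Gata1 nor Fshr was called without the filter (adjusted p from 0.054 to 0.15). Summed Sertoli marker signals were 3263.2 to 3540 in SCARKO pools, against 3617.3 to 3815.3 in control pools, with no overlap. Such linear sums weigh the brightest gene most, here a marker with a mean log2 signal of 11.31. Of the 7 Sertoli markers 4 were not called, and their median log2 fold change was -0.09 over all 7. None of 6 germ cell, 6 peritubular myoid, 6 macrophage or 5 endothelial markers was called. The log2 fold changes with the smallest p were -0.21 for Sycp3 and 0.13 for Kit, -0.11 for Myh11 and -0.12 for Cnn1, 0.17 for C1qa and 0.12 for Lyz2, and 0.19 for Sox18 and -0.19 for Cdh5, at adjusted p of 0.12 to 0.46. Summed macrophage signals were 391.9 to 472 in SCARKO pools, against 340 to 471.5 in control pools, and summed endothelial signals 177.8 to 207.5, against 171.5 to 203.5. Germ cell sums were 2807.8 to 3353.3 in SCARKO pools, against 2734.7 to 3444 in control pools, and myoid sums 1882.9 to 2207.8, against 2026.9 to 2295.6. Markers of the adrenal cortex, which shares much of this pathway, stayed too dim to test in all pools, with summed signals of 12.3 to 24.2 over Cyp11b2, Cyp21a1 and Mc2r in SCARKO pools, against 12.8 to 21.1 in control pools. The defining Leydig genes Star, Cyp11a1, Cyp17a1 and Hsd3b1 were all bright enough to test. The part of other cell types in the members' values was not tested.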

How the data were processed

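Testis RNA of 10 pools was hybridised to Affymetrix arrays, and each probe set has 1 deposited value, a linear signal intensity. MAS5 is named in the submitters' processing notes for the 8 arrays of pairs 1 to 4 and nothing is named for pair 5, and no version is given. The number of arrays limits the precision, and so does the signal level, since dim probe sets vary more. An intensity has no counting depth.

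Probe sets were named from the platform annotation, with symbols updated by gene ID to GRCm38.p6: 20380 named 1 gene, 691 several, 1555 none and 64 were array controls. Signals under 1 were set to 1, log2 was taken, and the dimmest 40% of 22626 probe sets were left out. The fit of the remaining probe sets used limma 3.58.1 (R 4.3.3), genotype and pair as terms, an intensity trend and two-sided tests. In data simulated on 13575 probe sets the same fit called 86% of probe sets changed by 0.5 on the log2 scale. That share is over the whole array and does not apply to Star, Cyp17a1 and Hsd17b3, whose spread was far above the median. A list gene was represented by its brightest tested probe set. Named genes are all members, the called genes of each list or else the 2 with the smallest p, and the 3 closest in pattern to Star, Cyp11a1, Cyp17a1 and Hsd17b3. H6pd, Srd5a3, Cyp7b1, Nr4a1, Gata4, Nr5a1 and Amh fall outside this rule and were chosen after their values were seen. The genes, lists and tests were chosen with earlier results of these data known.

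Same-numbered pools came from littermates, per the labels' protocols for pairs 1 to 4. Their deviations from the group means correlated at 0.275, 0.186, 0.190, 0.109 and 0.386 for pairs 1 to 5, across probe sets. The highest correlations with a differently numbered pool of the other genotype were -0.008, 0.078, 0.109, 0.109 and 0.01. Pair 4 thus did not exceed that value. Alternatives were no filter or a stricter one, 16 added before log2, quantile normalization, no trend, no block, each pair left out, pairs 3 and 5 left out, and groups from the descriptions.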

Additional observations from a re-analysis of the deposited data

Results flagged for a closer look

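Among 62 groups of 5 pools examined, 4 had 1 pool far from the other 4 on the log2 scale, and chance gives about 1 in 20. In SCARKO pool 5, Star probe set 1 had a signal of 38.5, where the next lowest SCARKO pool had 71.6, and Star probe set 2 had 25.8, where the next lowest had 60.7. Both read the same gene in the same pool. In control pool 1 the macrophage lysozyme gene Lyz2 had 72.5, where the next lowest control pool had 103.6. In SCARKO pool 1 the endothelial cadherin gene Cdh5 had 19.8, where the next lowest SCARKO pool had 24.4. The low Cyp17a1 signals of SCARKO pool 5 and control pool 3 did not reach this criterion within their groups.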

How the results depend on the processing

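No member was called under any alternative run. Over all probe sets the 704 calls between genotypes became 38 without the filter on dim probe sets, 321 without the intensity trend, 404 without the replicate block, 303 to 743 with 1 pair left out and 88 without pairs 3 and 5. With groups from the descriptions the limma count was 0, and 611 passed 0.05 before adjustment. The 80 calls between pairs became 0 without the filter (2775 at an unadjusted p under 0.05), 0 without the trend (1993) and 17 to 102 with 1 pair left out. Directions of Star, Cyp11a1 and Cyp17a1 turned with the pairs used. With 1 pair left out, log2 fold changes ran from -0.35 to 0.0803, -0.35 to 0.35 and -0.45 to 0.0656 for Star probe sets 1 to 3, from -0.0948 to 0.0427 for Cyp11a1 and from -0.50 to 0.37 for Cyp17a1. Without pair 4, Cyp17a1 had 0.0028 and Star probe sets 2 and 3 had 0.16 and 0.0656, and Star probe set 3 had 0.0031 without pair 5. Without pairs 3 and 5, chosen after the data were seen, Star probe set 2 had 0.0258. Fdx1 ran from -0.0702 (without pair 3) to 0.11 and had -0.0127 without pairs 3 and 5. With groups from the descriptions, also run for the named genes after the data were seen, log2 fold changes were -0.0576 for Hsd3b1, -0.18 for Hsd17b3 and 0.0038 for Akr1c14. The other genes whose fold changes are given turned their sign there, except Star, Cyp11a1 and Cyp17a1, at adjusted p of 0.898 to 0.976. Positive values were 0.0796 for Pgrmc1, 0.16 for Cyb5a, 0.52 for Nr0b1, 0.0999 for Lifr, 0.26 for Amhr2, 0.33 for Cldn11, 0.14 for Gata1, 0.19 for Sycp3, 0.0529 for Myh11, 0.13 for Cnn1, 0.12 for Cdh5 and 0.47 for Amh. Negative values were -0.11 for Scp2, -0.0349 for Dbi, -0.0574 for Hsd17b10, -0.0734 for Hsd17b12, -0.11 for Akap1, -0.0620 for Acsl4, -0.0507 for Aldh1a1 and -0.33 for Fshr, with a further -0.11 for Kit, -0.11 for C1qa, -0.13 for Lyz2, -0.0570 for Sox18, -0.13 for Fdx1, -0.11 for Gata4, -0.26 for Nr4a1, -0.0263 for Nr5a1 and -0.15 for Tmtc4. Hsd3b1, Hsd17b3 and Akr1c14 kept their direction under the other alternatives in which they were tested. The likeness of Cyp17a1 to Star moved to 0.665 and to Fdx1 to 0.911 without pairs 3 and 5; with 1 pair left out it ran from 0.260 to 0.491 and from 0.386 to 0.554. Without the filter Nr0b1, Amhr2, Cldn11, Gata1, Fshr and Tmtc4 were not called (adjusted p from 0.054 to 0.22). Without the replicate block Tmtc4 was not called (adjusted p = 0.061), and no call changed for the other members and named genes whose fold changes are given. A pool is 3 mice, and low signals near or under 19.3 limit Folr2, Il15 and Amh, and to a lesser degree Hsd17b3.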
